A study of Mus musculus with 2 samples.

Results

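The AP-1 factors and their nearest relatives form a group of 10 genes in these data: Fos, Fosb, Fosl1, Fosl2, Jun, Junb, Jund, Atf3, Maff and Crem. They were taken by name from the 31054 genes that both libraries list, without a threshold on their own levels, and all 10 were found. The names were chosen with earlier results of these data known, so counts of members below are descriptions only. Each is a basic leucine zipper (bZIP) transcription factor, described here in 2 droplet libraries of cells from gonadal white adipose tissue (gWAT). The donors of both libraries were 18-month-old male p16-CreERT2/R26-LSL-tdTomato mice given tamoxifen. In this line a tamoxifen-activated Cre made under control of p16, a cell cycle inhibitor and marker of senescence, deletes a stop sequence and turns on the red protein tdTomato, so the label records p16 activity at the time of tamoxifen. CD31- CD45- cells were sorted by fluorescence into 1 Tom+ and 1 Tom- library, and the number of mice pooled in each was not given in the sources used here.

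With 1 library per condition there is no replicate, and no test between conditions is possible. What parts the Tom+ from the Tom- library cannot be told apart from what parts their preparations. The 95% intervals given in parentheses cover counting error only, from exact Poisson limits for levels and exact Clopper-Pearson limits for ratios and shares. Cells of a library are not replicates, and their spread is larger than these intervals.

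AP-1 binds DNA as a dimer. Fos proteins pair with Jun proteins, Jun proteins can also pair with each other, and Atf3 joins Jun proteins as well. Most of these genes are immediate-early genes, which need no new protein to be switched on and answer growth factors, cytokines, mechanical strain and stress within minutes. Small Maf proteins such as MafF have no activation domain of their own and act through their partners, and Crem encodes regulators of cAMP-responsive genes, among them the repressor ICER. In connective tissue cells, AP-1 lies downstream of growth factor and stress kinases. Tissue dissociation is also known to switch these genes on. Cells of both libraries went through enzyme digestion at 37 °C for 50 min, whose part in the levels was not tested.

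The Tom+ library held 61119807 unique molecular identifiers (UMIs, each standing for a captured RNA molecule) on 5566 barcodes, and the Tom- library held 96872394 on 11838. Barcodes above 1000 but below 7000 genes, with mitochondrial UMIs under 8%, were kept as cells and numbered 3524 and 6717. A cell was called mesothelial with at least 10 UMIs of Msln, Upk3b, Krt19, Lrrn4 and Upk1b together, and stromal with under 5. This gave 3263 Tom+ and 4800 Tom- stromal cells, with medians of 14235 and 11270 UMIs, and 250 Tom+ and 1887 Tom- mesothelial cells, with medians of 18602 and 14753 UMIs. Cells between the limits numbered 11 and 30. The split went with most markers it did not use. Krt8, a keratin of mesothelium, was at 353 and 398 CPM (the UMIs of a gene per 1000000 UMIs of a class) in Tom+ and Tom- mesothelial cells and at 1.62 and 3.16 CPM in stromal cells. Pdgfra, the receptor that marks adipose progenitors, was at 344 and 282 CPM in stromal cells against 41.9 and 51.4 CPM in mesothelial cells. Cd34, listed as a stromal marker, went against the split. It was at 434.7 and 417.2 CPM in Tom+ and Tom- mesothelial cells against 293.9 and 291.5 CPM in stromal cells. In each library the other 7 of 8 stromal markers were lower in mesothelial cells, and all 8 mesothelial markers outside the rule were higher.

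The stromal class was not pure. Its 7 immune markers summed to 59909 CPM in the Tom+ and 14475 CPM in the Tom- library, of which Igkc, an antibody light chain, made 45478 and 10759 CPM, while Ptprc, the gene of the sorted CD45, was at 7.57 and 3.44 CPM. Cells with at least 1000 UMIs of Igkc, Ighm and Jchain, called immunoglobulin-rich here, numbered 132 of the Tom+ and 52 of the Tom- stromal cells. Those with at least 10 such UMIs numbered 1649 and 127. The deposited lists also shared 2224 barcodes, although just 9 were kept as cells in both libraries, and 506 Tom+ and 284 Tom- cells carried a barcode that the other library listed too. The 5 mesothelial markers of the rule summed to 6.63 and 27.4 CPM in Tom+ and Tom- stromal cells, against 4844 and 4796 CPM in mesothelial cells. Some ratios of single factors are also given without the immunoglobulin-rich cells or without the shared barcodes. Shares of cells, family shares, correlations, ranges and counts in gene lists are given with these cells only, and their part in those values was not tested.

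Fos, on chromosome 12 of GRCm38 from 85473890 to 85477273, is the founding member and pairs with Jun proteins. In stromal cells it was at 5737 CPM (5717 to 5758) in the Tom+ and 6560 CPM (6539 to 6581) in the Tom- library. The log2 ratio of Tom+ over Tom- was -0.19 (-0.20 to -0.19). Fosb (chromosome 7, 19302696 to 19310051), which shares its fast response, stood at 3032 CPM in the Tom+ against 3537 CPM in the Tom- library. Both genes were thus slightly lower in the Tom+ library.

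The Fos-related genes without a strong activation domain, Fosl1 and Fosl2, differed more. Fosl1 (chromosome 19, 5447547 to 5455946), which encodes Fra-1, stood at 31.1 CPM (29.6 to 32.7) in the Tom+ library against 69.5 CPM (67.4 to 71.7) in the Tom- library. Its log2 ratio of -1.16 (-1.25 to -1.08) lay at percentile 0.583 of the 9778 genes compared. Fosl2 (chromosome 5, 32135801 to 32157842), which encodes Fra-2, stood at 332 CPM in the Tom+ against 450 CPM in the Tom- library, which gives a log2 ratio of -0.44 (-0.47 to -0.41).

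Among the Jun genes the values parted by member. Jun (chromosome 4, 95049034 to 95052222), the main transactivating partner of Fos, stood at 2591 CPM in the Tom+ against 2918 CPM in the Tom- library, for a log2 ratio of -0.17 (-0.18 to -0.16). Junb (chromosome 8, 84974484 to 84978718), a weaker activator that can hold Jun in check, had 4383 CPM (4365 to 4401) in the Tom+ library against 6392 CPM (6371 to 6413) in the Tom- library, and its log2 ratio was -0.54 (-0.55 to -0.54). Jund (chromosome 8, 70698949 to 70700616), the most constant of the 3 in most tissues, had 2627 against 3298 CPM, with a log2 ratio of -0.33 (-0.34 to -0.32). Of the Jun family, Junb showed the largest difference between the libraries.

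Atf3 (chromosome 1, 191170296 to 191218039) is switched on by stress and often represses its targets. Its stromal level was 496 CPM (490 to 502) in the Tom+ library against 629 CPM (623 to 635) in the Tom- library, with a log2 ratio of -0.34 (-0.37 to -0.32). Maff (chromosome 15, 79346621 to 79359076) had 254 CPM (250 to 259) against 537 CPM (531 to 543). Its log2 ratio was -1.08 (-1.11 to -1.05), which placed it at percentile 0.767. Crem (chromosome 18, 3266048 to 3337748) had 35.4 CPM (33.8 to 37.0) against 62.0 CPM (60.0 to 64.0), and its log2 ratio was -0.81 (-0.89 to -0.73). In the Tom+ library, Maff thus stood at 0.473 times and Crem at 0.571 times its Tom- stromal level.

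**Figure D1:**
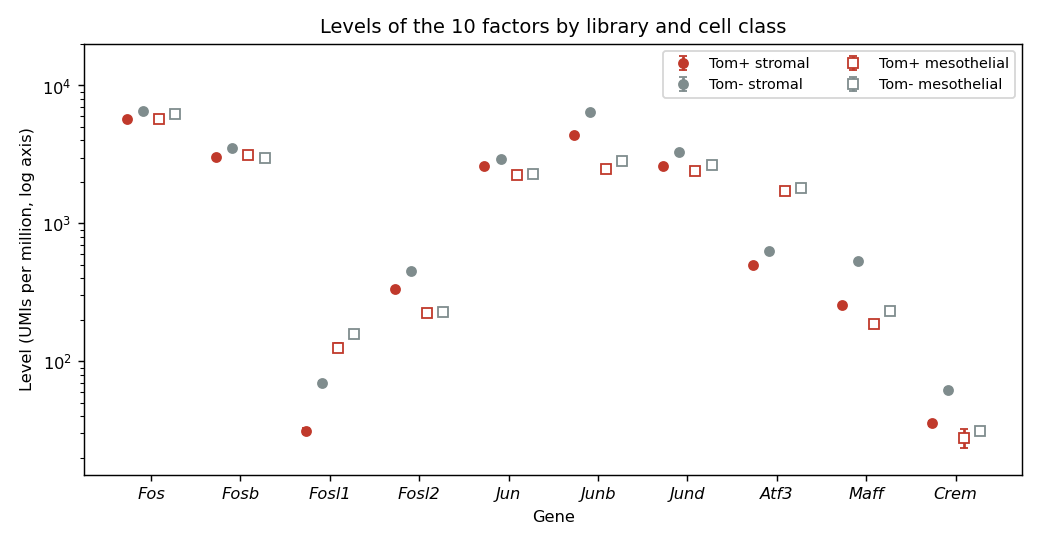
Level of each of the 10 factors in CPM on a log axis, with 95% counting intervals that are mostly smaller than the symbols. Filled circles are stromal and open squares mesothelial cells, red for Tom+ and grey for Tom-: all 10 Tom- stromal circles lie above their Tom+ partners, and Atf3 and Fosl1 are the genes whose squares lie far above their circles.

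All 10 factors were lower in Tom+ than in Tom- stromal cells, where 39.6% of all genes were lower, and their median log2 ratio was -0.39 against 0.071 over all genes that averaged 5 CPM or more. Past a log2 ratio of 0.5 on the lower side were 4 of the 10, namely Fosl1, Maff, Crem and Junb, beside 4.26% of all genes. None of the 10 was higher by that much, as 6.39% of all genes were. Fosl1, Maff and Crem stayed past -0.5 in each of the 13 other ways of scaling or choosing cells that were tried, but Junb did in just 9 of them. When cells were split by UMIs per cell, as given below, Junb was short of -0.5 in every range and Crem in the shallowest. Without the immunoglobulin-rich cells the log2 ratio of Junb was -0.49, and those of Fosl1, Maff and Crem were -1.10, -1.02 and -0.82. Without the cells whose barcode the other library also listed, Junb was at -0.44, Fos and Fosb at -0.11 and Atf3 at -0.23. Stromal cells with 10 or more immunoglobulin UMIs were far more common in the Tom+ library, at 1649 of 3263 against 127 of 4800. Without all of these, Fosl2 was at -0.24 and Junb at -0.41. Fosl1, Maff and Crem were then at -0.90, -0.85 and -0.69, their smallest differences among the 13 alternatives.

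In mesothelial cells the log2 ratios between the libraries were smaller in size than in stromal cells. None of the 10 factors was past a log2 ratio of 0.5 in either direction, beside 1.78% of 10014 genes lower and 3.03% higher. The median log2 ratio of the 10 was -0.14, against 0.032 over all genes. Fosl1 had 126 CPM (116 to 136) in the Tom+ library against 158 CPM (154 to 163) in the Tom- library, with a log2 ratio of -0.33 (-0.45 to -0.22). Maff had 186 CPM (175 to 198) against 232 CPM (227 to 237), and its log2 ratio was -0.32 (-0.42 to -0.22). Without the cells whose barcode the other library also listed, these ratios were -0.19 and -0.13. Without the top 5% of cells by UMIs and mesothelial cells with a Pdgfra UMI, a stricter guard against doublets, Fosl1 was at -0.13, Maff at -0.12, Fos at -0.26 and Jun at -0.18, against -0.13 for Fos and -0.036 for Jun with all cells. Crem, at 27.6 CPM (23.3 to 32.5) and 31.3 CPM (29.4 to 33.3), had overlapping intervals, as did Fosl2 at 223 and 226 CPM. Fosb alone was higher in the Tom+ library, at 3140 CPM (3092 to 3188) against 2955 CPM (2936 to 2973). Whether the ratios of a gene in stromal and mesothelial cells differ beyond replicate error was not tested.

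Among the immune markers, Lyz2, a macrophage lysozyme, had 275 CPM among Tom+ against 10.8 CPM among Tom- mesothelial cells, while Ptprc was at 6.39 and 0.494 CPM. All 7 immune markers together summed to 944 and 232 CPM in those cells, and their part in the mesothelial values was not tested.

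**Figure D2:**
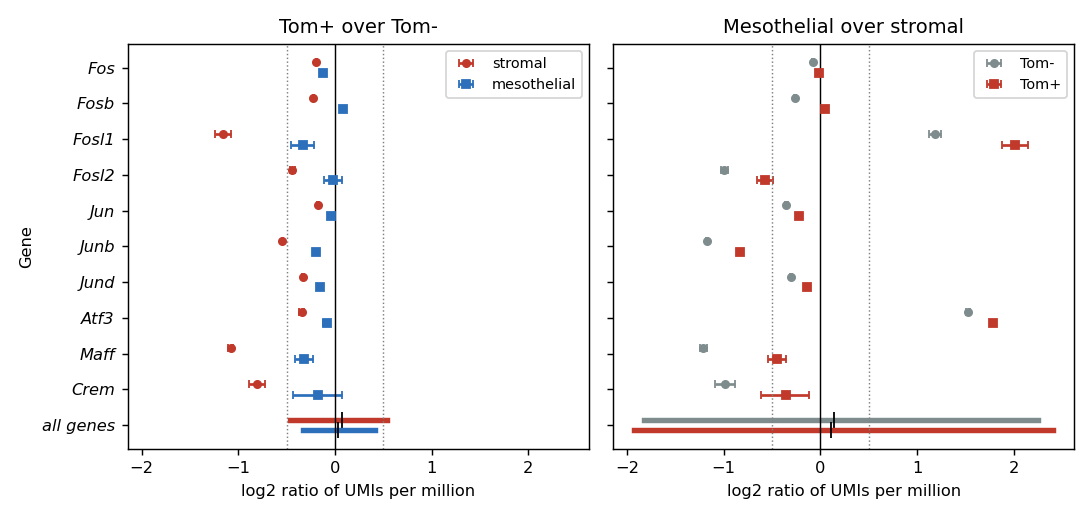
Log2 ratio of each factor with its 95% counting interval, for Tom+ over Tom- (left; circles stromal, squares mesothelial) and mesothelial over stromal cells (right; grey circles Tom-, red squares Tom+), with dotted lines at 0.5 on either side of 0. The bottom row spans the 5th to 95th percentile of all genes with a tick at their median: Fosl1, Maff, Crem and Junb lie past the dotted line at left in stromal cells, and no mesothelial square does.

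Mesothelial cells, the epithelium-like lining of the fat pad, differed from stromal cells in which factors they held. Atf3 was at 1816 CPM (1801 to 1831) in Tom- mesothelial cells against 629 CPM in Tom- stromal cells, a log2 ratio of 1.53 (1.51 to 1.55). In the Tom+ library it was at 1710 CPM (1675 to 1745) against 496 CPM, a log2 ratio of 1.79 (1.75 to 1.82). Fosl1 was 2.28 times as high in Tom- mesothelial as in Tom- stromal cells and 4.04 times as high in the Tom+ library. Atf3 and Fosl1 were the 2 factors past 0.5 on the higher side in each library, beside 24.5% of 10019 genes in the Tom- and 26.0% of 10240 genes in the Tom+ library, so that as a count they stand below the background of these very different classes.

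Junb, Maff, Crem and Fosl2 leaned to stroma. Junb was at 2829 CPM in Tom- mesothelial cells, a log2 ratio over stromal cells of -1.18 (-1.19 to -1.17), and at 2472 CPM in Tom+ mesothelial cells, a log2 ratio of -0.83 (-0.85 to -0.80). Fosl2 had log2 ratios of -0.99 (-1.03 to -0.95) and -0.57 (-0.66 to -0.49) in the Tom- and Tom+ library. Maff had ratios of -1.21 (-1.25 to -1.18) and -0.45 (-0.55 to -0.36), and Crem of -0.99 (-1.09 to -0.89) and -0.36 (-0.61 to -0.11). Past -0.5 were thus 4 of the 10 in the Tom- library, beside 15.7% of genes, and 2 of the 10, Junb and Fosl2, in the Tom+ library, beside 18.6%. The Tom+ count depends on how cells are weighted. It was 4 with cells thinned to 5000 UMIs, where Maff was at -0.62 and Crem at -0.70, and 4 with each cell weighted equally, where Maff was at -0.56 and Crem at -0.57. Maff was past -0.5 in 6 of 12 alternatives, at -0.55 without the immunoglobulin-rich cells, and Crem in 2 of 12.

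Fos differed less between the classes. It was at 6221 CPM in Tom- mesothelial and 6560 CPM in Tom- stromal cells, and at 5699 CPM (5635 to 5763) and 5737 CPM (5717 to 5758) in the Tom+ library, where the intervals overlap. The log2 ratio of Fos was -0.0097 in the Tom+ library and ranged from -0.24 to -0.0083 over 12 alternatives, and that in the Tom- library was -0.077 and ranged from -0.21 to -0.076. Jun, the partner of Fos, had log2 ratios of -0.35 in the Tom- and -0.22 in the Tom+ library. Fosb had log2 ratios of -0.26 in the Tom- and 0.051 in the Tom+ library. The latter turned to -0.049 without the immunoglobulin-rich cells and kept its sign in 4 of 12 alternatives, so no direction is given for it. Summed over all 10 factors, the members made up 1.95% of the UMIs of Tom+ stromal cells, 2.45% of Tom- stromal cells, 1.82% of Tom+ mesothelial cells and 1.94% of Tom- mesothelial cells.

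The makeup of the families was compared between groups as shares of the family UMIs of each group. Within a family, a lower share of any gene raises the shares of the others, so a share is not a level. Of all Jun family UMIs, Junb held 45.7% (45.5 to 45.8) in Tom+ and 50.7% (50.6 to 50.8) in Tom- stromal cells, against 34.9% (34.4 to 35.4) and 36.4% (36.2 to 36.6) in mesothelial cells. Jun held 27.0% and 23.1% in Tom+ and Tom- stromal cells, and Jund 27.4% and 26.2%, although the CPM of both was lower in the Tom+ library. Within the Fos family, Fosl1 held 0.341% (0.324 to 0.358) in Tom+ and 0.655% (0.635 to 0.675) in Tom- stromal cells, and 1.37% (1.27 to 1.48) and 1.66% (1.61 to 1.70) in mesothelial cells. The share of Fos in its family stayed between 61.8% and 65.1% in the 4 groups.

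The sequences just before the start of these genes are shown because cAMP and growth factor signals reach several of them through CREB, which binds the cAMP response element (CRE, TGACGTCA) or its core TGACG. RefSeq windows on GRCm38.p6 were found for 8 of the 10 genes, as 10 windows with 3 of them for Maff, and not for Fosl1 and Crem. The last 120 bases before the start are printed on the strand of the gene, for Fos (chr12:85473770-85473889, plus strand), Fosb (chr7:19310046-19310165, minus), Junb (chr8:84978749-84978868, minus), Atf3 (chr1:191183334-191183453, minus, a start inside the annotated gene), the middle Maff window (chr15:79347400-79347519, plus) and, as a window without the core, Jun (chr4:95052223-95052342, minus). Capitals mark TGACG on either strand.
Fos: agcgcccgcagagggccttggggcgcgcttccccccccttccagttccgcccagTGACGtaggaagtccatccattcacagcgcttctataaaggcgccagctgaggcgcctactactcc
Fosb: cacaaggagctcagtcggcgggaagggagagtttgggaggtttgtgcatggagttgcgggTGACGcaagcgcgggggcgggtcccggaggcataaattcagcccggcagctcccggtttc
Junb: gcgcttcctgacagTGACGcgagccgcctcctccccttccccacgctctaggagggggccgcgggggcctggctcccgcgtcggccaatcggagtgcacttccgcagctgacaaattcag
Atf3: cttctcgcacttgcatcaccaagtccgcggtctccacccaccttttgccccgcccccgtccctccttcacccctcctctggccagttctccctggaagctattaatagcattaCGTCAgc
Maff: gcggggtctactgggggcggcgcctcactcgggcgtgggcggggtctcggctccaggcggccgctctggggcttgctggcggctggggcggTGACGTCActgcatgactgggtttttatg
Jun: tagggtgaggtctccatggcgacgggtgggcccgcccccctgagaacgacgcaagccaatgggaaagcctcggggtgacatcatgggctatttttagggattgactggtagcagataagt

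Over the 250 bases before the start, searched on both strands, TGACG was found in 6 of the 10 windows, of 5 genes, and in 17.8% of all 32851 windows of the table. The full CRE, which always contains the core, was found in 1 of the 10, that of Maff, and in 1.55% of all windows. The AP-1 site, searched in the form TGANTCA only, was found in 0 of the 10 and in 6.75% of all windows. Other forms, such as tgacatca in the printed Jun window, were not searched. TATAAA was found in 1, that of Fos, and in 12.4%. The CArG box, at which serum response factor binds, was found in 0 of the 10 and in 1.47% of all windows, and the kappaB site in 4 and in 7.25%. Bases further than 250 from the start were not searched, so sites there are not counted. Some windows lie away from the annotated gene start, with that of Jund before it and the middle one of Maff inside the gene. These matches describe the letters only. All 10 factors were lower in Tom+ stromal cells, so genes with and without the core could not differ in direction there.

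To see how the factors are spread over cells, each cell was thinned at random to 5000 UMIs. This left out 119 of the Tom+ and 253 of the Tom- stromal cells, 0 of the Tom+ and 31 of the Tom- mesothelial cells as too shallow. Fos, Fosb, Junb and Jund were then found in at least 98.8% of the cells of each group. Junb had a median of 22 UMIs per Tom+ stromal cell, with 9 at the 10th and 41 at the 90th percentile, and of 33 per Tom- stromal cell, with 15 and 53. At least 40 and under 80 Junb UMIs were found in 10.9% of Tom+ and 32.8% of Tom- stromal cells. The 10th percentile, the median and the 90th percentile of Junb were all lower in the Tom+ library.

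Maff, by contrast, was absent from many cells. At equal depth, 53.7% (51.9 to 55.4) of stromal cells held a Maff UMI in the Tom+ library against 69.7% (68.4 to 71.1) in the Tom- library, and 76.5% and 82.4% did without thinning. Cells with 5 or more Maff UMIs made up 8.46% of Tom+ and 20.5% of Tom- stromal cells, with highest values of 31 and 36. Of mesothelial cells at equal depth, 46.4% (40.1 to 52.8) held a Maff UMI in the Tom+ library and 54.2% (51.9 to 56.5) did so in the Tom- library.

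Fosl1 was sparser. Its thinned share was 11.6% (10.5 to 12.8) in Tom+ and 22.5% (21.3 to 23.7) in Tom- stromal cells, against 36.4% and 41.3% in mesothelial cells, whose intervals overlap. Without thinning these shares were 22.5%, 35.5%, 64.0% and 63.3%. Crem, likewise sparse, reached 13.6% (12.4 to 14.9) of stromal cells in the Tom+ against 21.5% (20.3 to 22.7) in the Tom- library, and 29.9% and 36.2% unthinned. Atf3 reached 70.6% and 77.8% of Tom+ and Tom- stromal cells, with intervals that do not overlap, and 245 of 250 Tom+ and 98.2% of Tom- mesothelial cells. It had a median of 2 UMIs in stromal cells and 8 in mesothelial cells of each library.

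No cell class here is known to lack these factors, so no share from free RNA can be set beside theirs. In the barcodes with no more than 1000 genes, which hold much free RNA, Fosl1 was at 58.1 CPM in the Tom+ and 49.1 CPM in the Tom- library. The Tom+ value is above the 31.1 CPM of Tom+ stromal cells, and the part of free RNA in the sparse genes was not tested.

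**Figure D3:**
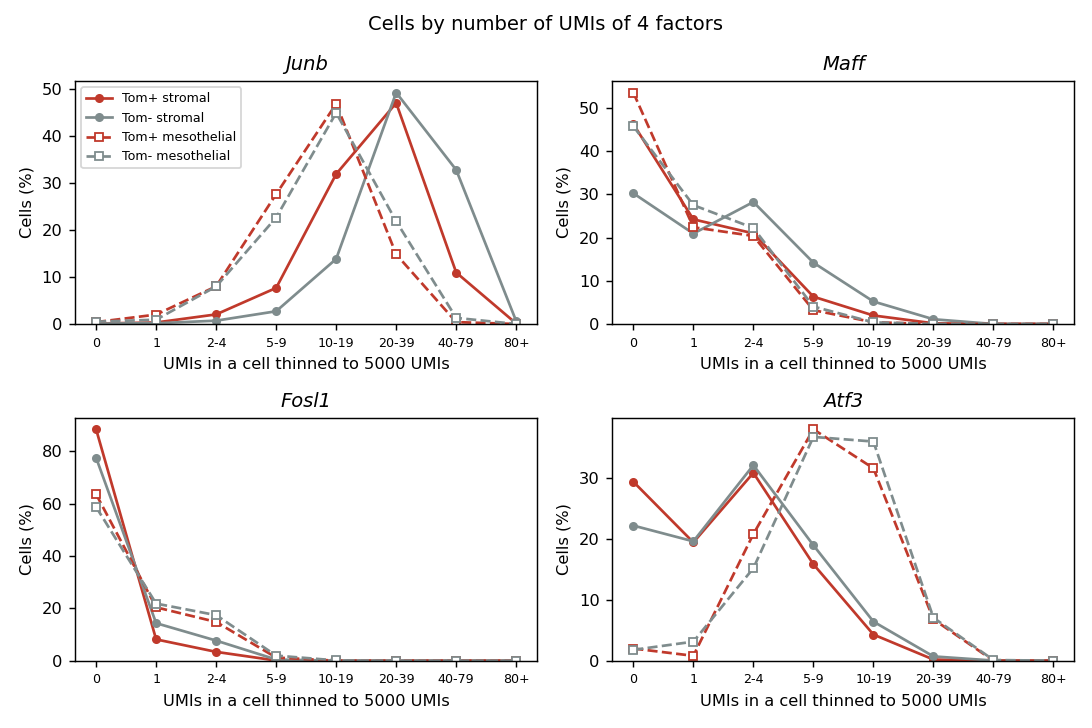
Percent of thinned cells by number of UMIs of Junb, Maff, Fosl1 and Atf3 (solid lines stromal, dashed lines mesothelial, red Tom+, grey Tom-). The Tom- stromal line for Junb is shifted to higher counts, fewer Tom- than Tom+ stromal cells are at 0 for Maff and Fosl1, and the mesothelial lines for Atf3 peak at 5 to 9 UMIs while the stromal lines peak at 2 to 4.

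Within the stromal cells the 10 factors did not vary as a single block. Over 4547 thinned Tom- stromal cells, taken from a single library with equal UMIs per cell, Pearson's r of log(1 + UMIs) between Fos and Jun was 0.64, between Jun and Jund 0.54, and between Fos and Fosb 0.44. Atf3 varied with Fos at 0.36. The other set was Maff and Fosl2, at 0.37, with weaker values of Maff for Fosl1 at 0.22 and for Crem at 0.19. Between the sets most values were negative, at -0.41 for Jun and Fosl2, -0.36 for Jun and Maff and -0.32 for Fos and Maff. Fosb was near 0 with Maff, at -0.002, and with Crem, at 0.0099. Junb varied with both, at 0.15 with Fos and 0.22 with Fosl2.

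Over 3144 thinned Tom+ stromal cells the values were close to these, with 0.59 for Fos and Jun, 0.36 for Maff and Fosl2, and -0.37 for Jun and Fosl2. In 1856 Tom- mesothelial cells Fos and Jun were at 0.56, but Maff and Fosl2 at just 0.14 and Jun and Fosl2 at -0.090. These correlations are descriptions across cells of 1 library, and counts as sparse as those of Fosl1 and Crem keep any correlation low.

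**Figure D4:**
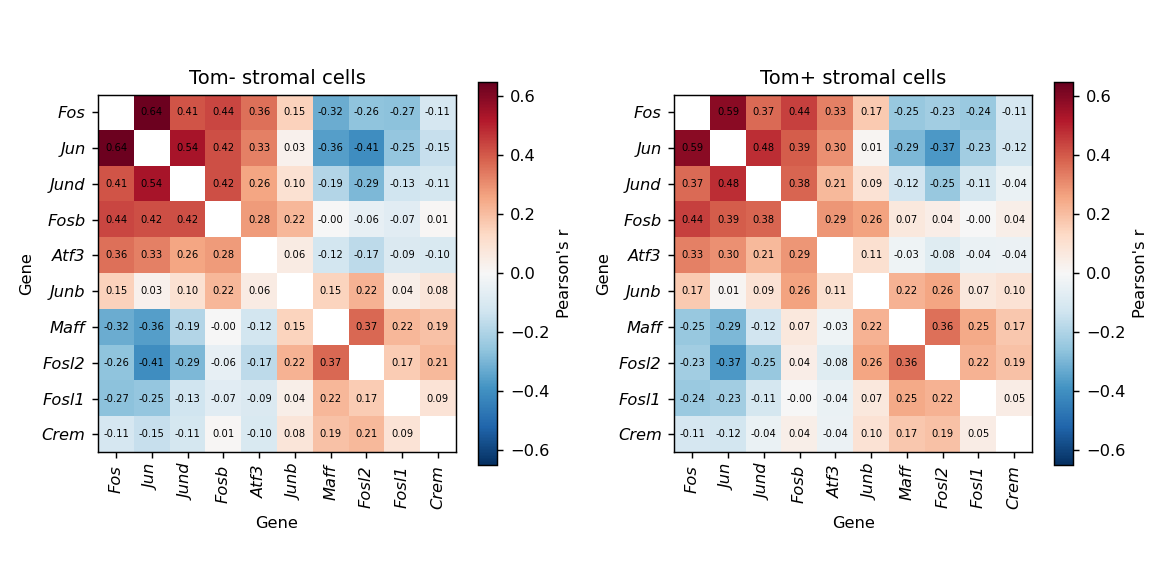
Pearson's r between factors across thinned stromal cells of the Tom- (left) and Tom+ library (right), red for positive and blue for negative values. Fos, Jun, Jund, Fosb and Atf3 form a positive block, Maff, Fosl2, Fosl1 and Crem a weaker one, with mostly negative values between the blocks and r = 0.64 for Fos and Jun in the Tom- library.

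The same pattern shows in levels when stromal cells are split by their own Fos UMIs after thinning, a split chosen after the data were seen. In Tom- stromal cells Maff was at 917 CPM in the 728 cells with under 10 Fos UMIs, 731 CPM at 10 to 24, 509 CPM at 25 to 49 and 275 CPM in the 1157 cells with 50 and more. In Tom+ stromal cells it was at 537, 364, 220 and 170.5 CPM over the same ranges, of which the first held 413 and the last 420 cells. Maff was lower in the Tom+ library in all 4 ranges, with log2 ratios from -1.21 to -0.69.

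Junb was at 6121 CPM in Tom- cells with under 10 Fos UMIs and 7427 CPM in those with 50 and more, and at 4394 and 5808 CPM in Tom+ cells, so that its difference between the libraries, with log2 ratios from -0.57 to -0.35, ran across the range of Fos. Fosl1 ranged from 138 down to 22.1 CPM in Tom- cells and from 84.3 down to 10.0 CPM in Tom+ cells. Jun, at 693 to 6105 CPM in Tom- cells, went the other way with Fos. Its log2 ratio of Tom+ over Tom- was -0.019 in cells of under 10 Fos UMIs and 0.15 in cells of 10 to 24. It was -0.0018 in cells of 25 to 49 and -0.20 (-0.23 to -0.17) in cells of 50 and more.

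**Figure D5:**
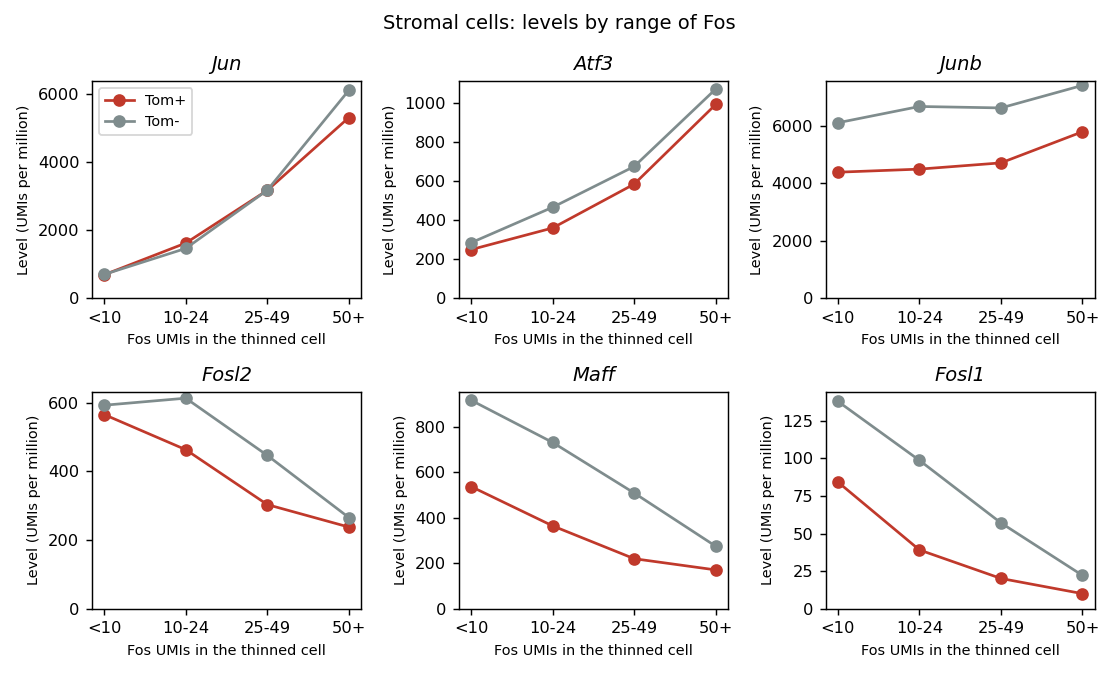
Level in CPM of 6 factors in Tom+ (red) and Tom- (grey) stromal cells, by range of Fos UMIs in the thinned cell. Jun and Atf3 climb with Fos, Maff and Fosl1 decline over all 4 ranges in both libraries, Fosl2 is lowest at 50 and more Fos UMIs, and the Tom+ line of Maff, Junb and Fosl1 lies below the Tom- line in all 4 ranges.

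Adipose stroma runs from interstitial progenitors, marked by genes such as Dpp4 and Pi16, to preadipocytes, and stromal cells were also split into 3 equal ranges by the share of their UMIs in each gene list. These are ranges and not cell types. Fos was highest among cells rich in preadipocyte genes. Over the lowest, middle and highest range of that list it was at 4941, 6778 and 8096 CPM in Tom- and 4635, 6055 and 6383 CPM in Tom+ cells, with log2 ratios of -0.092, -0.16 and -0.34. Maff ran the other way, at 649, 584 and 369 CPM in Tom- and 301, 282 and 192 CPM in Tom+ cells, and was lower in the Tom+ library in each range.

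Along the interstitial list the difference in Fos shrank. The log2 ratios of Fos were -0.38, -0.16 and -0.015 over the lowest, middle and highest range, and those of Atf3 -0.64, -0.29 and -0.13. Jun turned from -0.41 in the lowest to 0.18 in the highest range. Fosl1, Maff and Crem stayed past -0.5 in all 3 ranges of both lists. With the 9 combinations of the ranges weighted equally, 4 of the 10 factors were past -0.5 and all 10 were lower in the Tom+ library. The shares of all genes under this weighting are not given here.

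Since Tom+ stromal cells held more UMIs, the libraries were also compared at matched depth. In cells with at least 8000 and under 16000 UMIs, 1759 Tom+ and 3324 Tom-, Maff had a log2 ratio of -0.84 (-0.88 to -0.80), Fosl1 of -0.94 (-1.05 to -0.83), Crem of -0.68 (-0.80 to -0.57) and Junb of -0.39 (-0.40 to -0.38). In the 316 Tom+ and 795 Tom- cells with under 8000 UMIs, Maff was at -0.74 (-0.86 to -0.63), but the ratios of Crem, -0.056 (-0.36 to 0.24), and Fosl2, 0.057 (-0.053 to 0.17), had intervals that include 0. Junb was at -0.37 under 8000 UMIs and at -0.47 at 16000 and more, so it passed -0.5 in no depth range. The number of factors lower in the Tom+ library was 9 of 10 under 8000 UMIs, 10 of 10 from 8000 to under 16000 UMIs and 9 of 10 at 16000 and more. The share of all genes lower in each depth range is not given here, so these counts are not read as unusual.

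The label itself can be followed as RNA. After thinning, a tdTomato UMI was found in 17.5% (16.2 to 18.9) of Tom+ and 6.03% (5.35 to 6.76) of Tom- stromal cells, and in 28.6% and 13.1% without thinning. Within the Tom+ library, 550 thinned stromal cells with a tdTomato UMI were set beside 2594 without. None of the 10 factors was lower past -0.5 in the cells with tdTomato RNA, beside 11.4% of 9905 genes. Crem was higher by a log2 ratio of 0.70 (0.42 to 0.97), at 55.3 CPM from 152 UMIs against 34.1 CPM from 442 UMIs, beside 4.17% of genes. The median log2 ratio of all genes was -0.20. Maff was at 325 and 287 CPM, a log2 ratio of 0.18 (0.074 to 0.29), and Junb at 4888 and 4738 CPM.

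The immunoglobulin-rich cells fell mostly on the side with the label, 115 against 17. Without them, the median over all genes was -0.018 and 9 of the 10 factors were higher in the cells with tdTomato RNA, with log2 ratios of 0.42 (0.31 to 0.52) for Maff, 0.74 (0.44 to 1.03) for Crem, 0.24 (0.21 to 0.27) for Junb and 0.099 (0.073 to 0.12) for Fos. Past 0.5 was 1 of the 10, Crem, beside 5.49% of 9950 genes. With the immunoglobulin-rich cells kept, 5 of the 10 were above 0 and 5 below, among them Fosl2 at -0.20 (-0.30 to -0.099). The share of all genes above 0 is not given here for these splits, so such counts are not read as unusual. Fosl1 was at -0.095 (-0.45 to 0.25) with and -0.0082 (-0.39 to 0.36) without the immunoglobulin-rich cells, with intervals that include 0. Inside the Tom+ library, Maff, Crem and Junb were thus not lower in the cells with tdTomato RNA, with or without the immunoglobulin-rich cells. In the Tom- library, 274 stromal cells with a tdTomato UMI were set beside 4273 without, and the median log2 ratio of all genes was 0.016. There 8 of the 10 factors were higher in the cells with tdTomato RNA, with Fos at 0.18 (0.15 to 0.21) and Crem at 0.075 (-0.25 to 0.38). Maff, at -0.24 (-0.36 to -0.13), and Fosl1, at -0.16 (-0.49 to 0.15), were lower. A cell without a tdTomato UMI may still hold the protein by which it was sorted.

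The other genes of the pathway were taken from lists written with earlier results of these data known, and their counts are read beside the 4.26% of all genes lower and 6.39% higher in Tom+ stromal cells. Of 34 measured immediate-early genes outside the bZIP class, 12 were lower past -0.5 and 0 higher, with a median log2 ratio of -0.27. Myc, a growth regulator, had a log2 ratio of -0.98, Socs3, a brake on cytokine signaling, of -0.85, the nuclear receptor Nr4a2 of -0.84, and Csrnp1 of -0.83. Yet Egr1, a zinc finger factor that answers the same signals as Fos, had 4229 CPM in the Tom+ against 4151 CPM in the Tom- library.

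Of 21 measured genes with known AP-1 sites, 8 were lower past -0.5 and 1 higher, with a median of -0.34. The chemokine genes Cxcl2 and Cxcl1 had log2 ratios of -1.67 and -1.37, Il6 of -1.12 and Ptgs2, the inducible cyclooxygenase, of -1.04. Cxcl1 had 1932 CPM in the Tom+ against 5001 CPM in the Tom- library. Among 15 heat shock genes 1 was lower past -0.5, Hspa1a at -0.66, and the median was -0.23.

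Genes upstream of AP-1 did not share these values. Of 22 measured kinases that act on AP-1 or its regulators, 0 were past 0.5 in either direction and the median was 0.18, with Mapk8, a Jun kinase, at 0.42 and Mapk3, an ERK, at 0.15. Of 11 regulators of the serum and cAMP response, 0 were past 0.5 and the median was 0.21, with the coactivators Ep300 at 0.30 and Crebbp at 0.27. Of 9 measured phosphatases of MAP kinases, 1 was lower and 1 higher past 0.5, and Dusp1, which removes phosphate from stress kinases, was at -0.22. Among 35 other measured bZIP factors 2 were lower and 2 higher past 0.5, with a median of 0.084, and the lower ones with the largest ratios were Cebpb, an early factor of fat cell differentiation, at -0.88 and Nfil3 at -0.66.

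Of 7 measured senescence genes 0 were past 0.5 in either direction, 6 were below 0 and the median was -0.090. Igfbp5, a binder of growth factors, was the 1 above 0, at 0.42, and Cdkn1a, the cell cycle inhibitor p21, was at -0.13. Cdkn2a, the gene of p16, was sparse, with 4.66 CPM (4.08 to 5.29) in the Tom+ against 5.79 CPM (5.18 to 6.44) in the Tom- library, so its level in stromal cells was not higher in the library sorted for the label. By quantitative PCR, the authors reported higher p16, p21, Glb1 and Igfbp5 in sorted Tom+ than Tom- progenitors of old mice. They used primers named for p16ink4a and Actb as reference, a measure unlike the CPM of the whole Cdkn2a gene. Glb1 had 29.65 CPM (28.2 to 31.2) in Tom+ against 31.55 CPM (30.1 to 33.0) in Tom- stromal cells.

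In mesothelial cells, where 1.78% of all genes were lower and 3.03% higher past 0.5, the same lists gave 1 of 34 immediate-early genes and 2 of 22 genes with known AP-1 sites lower, with 0 and 5 higher. Cxcl1 had a log2 ratio of -0.76 there, Il6 of -1.10 and Nr4a2 of -0.51, while Cxcl2 was at 0.72 from a low level of 52.4 and 31.8 CPM. Of 8 measured senescence genes, 2 were higher and 0 lower past 0.5 in mesothelial cells. Cdkn2a had 12.4 CPM (9.59 to 15.8) in Tom+ against 8.47 CPM (7.495 to 9.53) in Tom- mesothelial cells, unlike in stromal cells.

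The genes most like the factors were sought among all other genes that averaged 50 CPM or more, by Pearson's r over thinned Tom- stromal cells with the summed UMIs of the 10. Egr1 came first, at 0.51 (0.53 over Tom+ cells), followed by Ier2 at 0.42 (0.37), Dcn at 0.40 (0.48), Malat1 at 0.39 (0.33), Dusp1 at 0.39 (0.34), Txnip at 0.39 (0.34), Sparcl1 at 0.37 (0.30), Gsn at 0.34 (0.45), Inmt at 0.34 (0.35) and Ubb at 0.33 (0.33). The sum is led by its most abundant members. For single members the nearest genes differed. Fosl2 was most like Nr4a3, at 0.52 (0.51), and Cebpb, at 0.48 (0.44), and Maff most like Csrnp1, at 0.42 (0.40), while Jun was most like Txnip, at 0.52 (0.52). Crem and Fosl1 gave low values, at 0.26 with Nr4a3 and 0.26 with Nfkb1.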

How the data were processed

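Gene counts were deposited by the authors as UMI counts per gene and barcode, whole numbers without normalization. Libraries were made with a droplet kit that reads the 3′ end. The submitters' processing notes name Cell Ranger 3.0.2 and mm10. UMI counts near the 3′ end do not rank different genes. Here barcodes above 1000 but below 7000 genes, with mitochondrial UMIs under 8%, were kept as cells. UMIs were summed per library and class and scaled to CPM. Genes averaging 5 CPM or more over the classes compared were set side by side by log2 ratio, with 0.5 as the limit of size. No doublet caller was run: the upper limit on genes was the guard in the main values, and a stricter set of cells was an alternative. The 10 members and all gene lists were chosen with earlier results of these data known. Of other lists, up to 4 genes with the largest absolute ratio in stromal cells among those of at least 50 CPM were named, as were the 10 genes most correlated with the summed members. Krt8, Cd34, Ptprc, Cdkn2a and the genes nearest to single members were chosen after their values were seen. Gene positions came from GENCODE on GRCm38, the build of mm10. Ratios were checked on simulated data. Intervals were computed with scipy 1.17.1 and tables with pandas 2.3.3, under Python 3.11.15.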

Additional observations from a re-analysis of the deposited data

Results flagged for a closer look

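Fosb had a log2 ratio of Tom+ over Tom- of -0.22 in stromal cells and of 0.088 in mesothelial cells, opposite directions with counting intervals that both exclude 0. This difference between the classes was not tested, as there is 1 library per condition. The mesothelial value kept its sign in all 12 alternatives (0.056 to 0.15) and the stromal value in all 13 (-0.29 to -0.11).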

How the results depend on the processing

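The count of 4 factors lower past 0.5 in Tom+ stromal cells was 2 with a log2 ratio of 1 as the limit. It was 2 of the 9 factors other than Fos within cells of under 10 Fos UMIs. It was 3 to 5 under 19 of its 21 alternatives, which leave out single ranges of depth and of the gene lists. Among those ranges it was 2 in cells under 8000 UMIs and 6 in the lowest range of the interstitial list. Shares of all genes at other limits and within ranges are not given here, so no count in this paragraph is read as unusual. The counts of factors higher in mesothelial than stromal cells changed by no more than 1.5 times. The counts lower in Tom+ mesothelial cells and lower with tdTomato RNA in the Tom+ library were 0, to which no fold change applies. The latter was also 0 with 2 or more tdTomato UMIs and without immunoglobulin-rich cells. Of factors lower in mesothelial than stromal cells, the count of 4 in the Tom- library was 2 with a limit of 1. The count of 2 in the Tom+ library was 4 with thinned cells, with the mean of per-cell shares and with a limit of 0.35, and 0 with a limit of 1. Of 40 ratios of single factors, 37 kept their direction under all their alternatives, and none past 0.5 turned. The others were Fosl2 and Atf3 between mesothelial cells and Fosb between the classes of the Tom+ library. With the median-of-ratios size factors, which set the median ratio of all genes to 0 from 0.071 between stromal cells and from 0.14 and 0.11 between classes of the Tom- and Tom+ library, Fosl2 was past the limit in stromal cells at -0.51. The alternatives without immunoglobulin-rich cells, without cells kept under a barcode of both libraries, within ranges of Fos and with 2 or more tdTomato UMIs were chosen after seeing the data. Leaving out a replicate was not possible. No paired analysis was possible because each condition has 1 library. Depth limits Fosl1 and Crem, whose shares of cells with a UMI move with the thinning: 34 of 40 shares left their interval at 7500 UMIs.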

Other observations

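Immunoglobulin-rich cells had lower CPM of Fos, Atf3 and Maff than the other stromal cells. Igkc alone took 428487 CPM in the Tom+ and 319513 CPM in the Tom- cells of this kind, which lowers the CPM of every other gene. Levels among UMIs other than immunoglobulin are not given here, so no lower level apart from immunoglobulin is claimed. Fos was at 2750 CPM in the 132 such Tom+ cells and 1892 CPM in the 52 such Tom- cells, and Atf3 at 153 and 92.7 CPM, against 6087 and 6719 CPM of Fos and 536 and 647 CPM of Atf3 in the stromal cells without them. Maff was at 107 and 171 CPM there, against 271 and 550 CPM. In barcodes kept out for mitochondrial UMIs of 8% or more, 118 Tom+ and 125 Tom-, Fos was at 3581 and 5003 CPM and Fosb at 3380 and 3358 CPM. In barcodes with no more than 1000 genes, Igkc alone took 145781 CPM in the Tom+ and 23498 CPM in the Tom- library, and Fos was at 2494 and 3077 CPM.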
